A study of Mus musculus with 8 samples.

Results

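The T-box factors of tooth and dermis are 7 genes, *Tbx1*, *Tbx2*, *Tbx3*, *Tbx4*, *Tbx5*, *Tbx15* and *Tbx18*, chosen by name from the 23358 genes of the deposited expression table without use of their values. The RNA-seq libraries came from the cervical loop, the growing end of the mouse incisor, dissected into a head (CLH), where the dental epithelial stem cells reside, and a tail (CLT), which holds their progenies. In the *Med1* cKO mice, Cre recombinase under the *Krt14* promoter, which is active in epithelial cells, removes the floxed exons 8 to 10 of *Med1*, a subunit of the Mediator complex that links enhancers to RNA polymerase. Cre-negative littermates served as Ctrl, all mice were C57BL/6 and 4 weeks old, and no agent was given. The paper describes 2 independent litters, with the tissues of several mice pooled for each group. The 4 groups, Ctrl CLH, cKO CLH, Ctrl CLT and cKO CLT, had 2 libraries each. Nothing in the labels ties a library to a litter or a pool, so p-values measure the spread between these libraries only.

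T-box factors are transcription factors that share a DNA-binding domain, the T-box, which recognises a short element containing the letters AGGTGTGA. Some members act mainly as repressors and others as activators, and their levels help to tell one mesenchyme or epithelium from another along the body. *Tbx1* is active in dental epithelium and is needed for enamel in the incisor, whereas *Tbx2* and *Tbx3* are repressors found in jaw and dental mesenchyme as well as in limb, heart and mammary tissue. *Tbx4* and *Tbx5* are known for hindlimb and for forelimb and heart, *Tbx15* for trunk dermis, fast-twitch muscle and brown fat, and *Tbx18* for dermal papilla precursors and mural cells of vessels.

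The labels name dental epithelial cells, but the libraries also held RNA of mesenchyme, with *Col1a1* at 1178 to 1865 RPKM in CLH and *Dspp*, the odontoblast matrix gene, at 423 to 654 RPKM. RPKM counts reads for every kilobase of a gene and corrects for the size of the library. Reads on genes numbered 22330512 to 28651106 per library. The 2 Ctrl CLT libraries stood apart from each other. Between them 34.6% of the genes tested differed by more than 1.5-fold in RPKM + 1, against 0.763% to 1.12% within the other groups. *Med1* RPKM over the whole gene, in which the deleted exons are a part, was 7.71 and 9.12 in CLH and 4.83 and 8.71 in CLT of Ctrl mice, and 7.10 and 7.03 in CLH and 9.15 and 8.96 in CLT of cKO mice. It was not lower in the CLT libraries labelled cKO, and exons have no values of their own in the table, so every direction below compares the libraries as labelled. The cKO CLT libraries differed from CLH in tissue markers. *Dspp* had 0.145 and 0.174 RPKM in cKO CLT. The 39 *Hox* genes, background markers of trunk and limb, summed there to 152 and 143 RPKM, against 0.586 to 1.13 RPKM in CLH. Ctrl CLT 1, with a *Hox* sum of 48.0 RPKM, differed from CLH in part. Whether these pieces of tissue match the region on their labels was not tested. The values of a group are given for library 1 and then for library 2.

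In the cKO CLT libraries *Tbx2* and *Tbx3* were at their lowest, with means of 1.10 and 0.498 RPKM against 15.3 and 9.74 in Ctrl CLT, and *Tbx15* was at its highest, with 6.94 RPKM against 1.30. *Tbx1* had a mean of 18.2 RPKM there against 11.1 in Ctrl CLT. In CLH the means of cKO and Ctrl lay within 1.14-fold of each other for these 4 genes. The low-level genes *Tbx4* and *Tbx18* also had their highest values in cKO CLT, and *Tbx5* stood near 0 throughout. With the 4 CLT libraries fitted alone, no member passed the threshold between cKO and Ctrl in CLT, and the 2 Ctrl CLT libraries lay far apart.

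**Figure D1:**
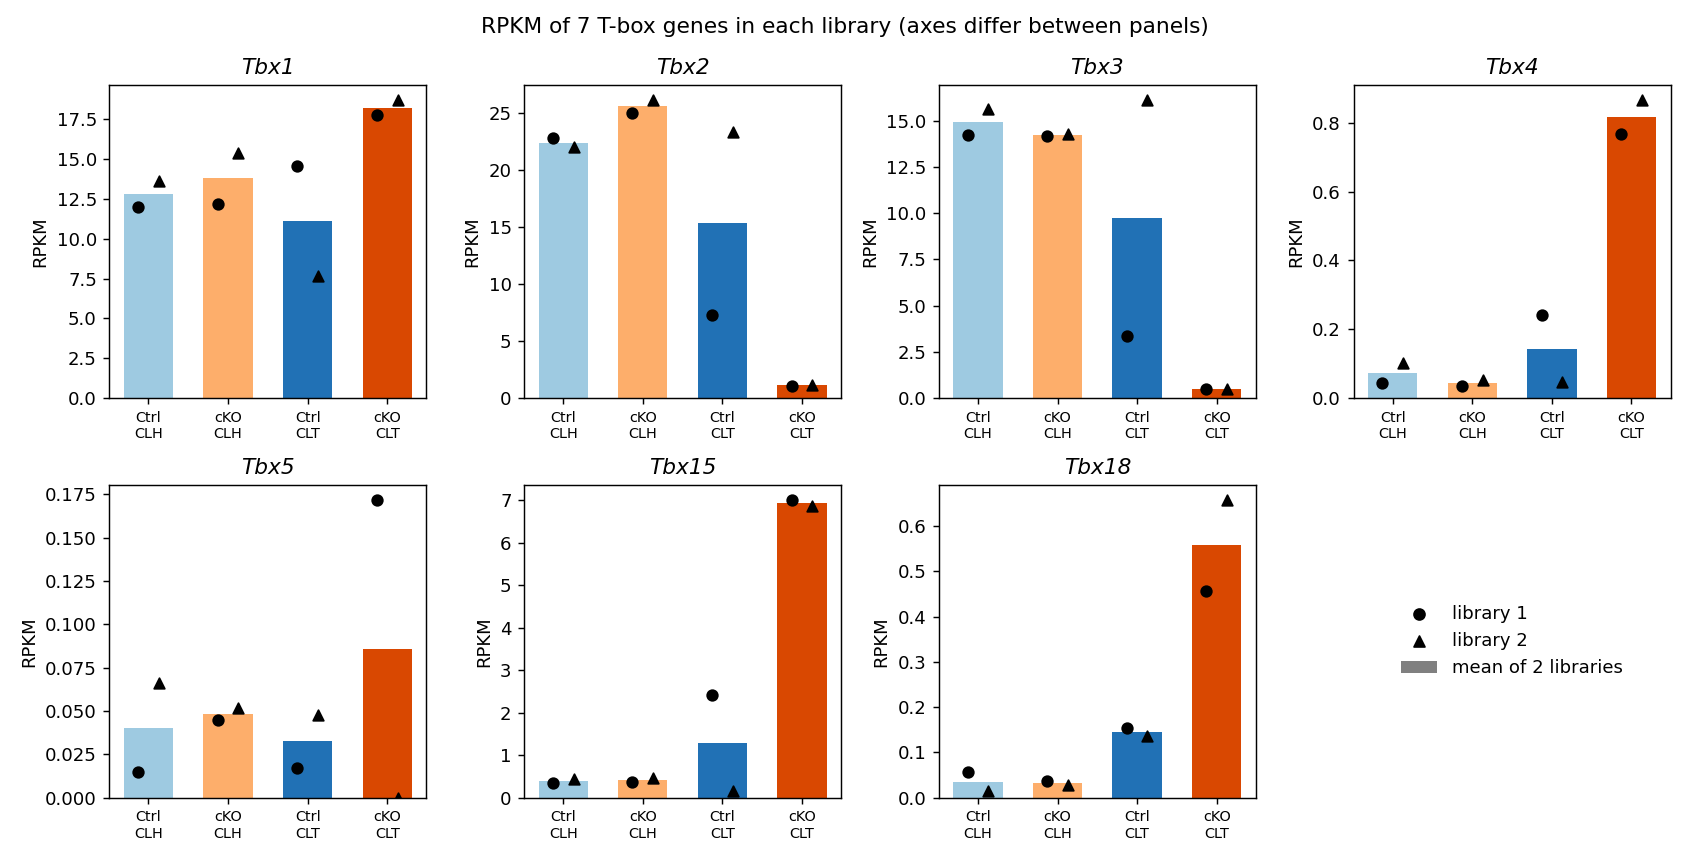
RPKM (vertical axes, linear, from 0, with a scale of its own in each panel) of the 7 T-box genes in the 4 groups (horizontal axis). Bars are means of 2 libraries, circles are library 1 and triangles library 2. *Tbx2* and *Tbx3* are lowest in cKO CLT, *Tbx4*, *Tbx15* and *Tbx18* are highest there, and the 2 Ctrl CLT libraries lie far apart for *Tbx1*, *Tbx2*, *Tbx3* and *Tbx15*.

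*Tbx2* (chr11:85832615-85841948, mm10) had the highest level of the 7 genes in CLH. Its RPKM was 22.8 and 22.0 in CLH and 7.30 and 23.3 in CLT of Ctrl mice, and 25.0 and 26.1 in CLH and 1.02 and 1.18 in CLT of cKO mice. Both cKO CLT libraries lay below every other library, Ctrl CLT 2 lay at the CLH level, and Ctrl CLT 1 lay between. The cKO CLT values rest on 102 and 115 reads, against 761 and 2207 in Ctrl CLT.

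*Tbx3* (chr5:119670669-119684601, mm10), the closest relative of *Tbx2* in this group and the gene of ulnar-mammary syndrome, followed the same order. Its RPKM was 14.2 and 15.6 in CLH and 3.34 and 16.1 in CLT of Ctrl mice, and 14.2 and 14.3 in CLH and 0.491 and 0.505 in CLT of cKO mice. The 2 cKO CLT libraries, with 70 reads each, did not overlap with any other library. The gene for an antisense RNA, *Tbx3os1*, overlaps *Tbx3* in the GENCODE M21 annotation and is no row of the table. The strand setting of the counting is not given in the sources used here, so without strand the reads of this pair cannot be told apart.

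Since reads of relatives could be exchanged, the coding sequences of the members were compared base by base. The most alike stretch of 90 in-frame coding bases within 1 exon of *Tbx2* and *Tbx3* (GRCm38, plus strand of both) lies at chr11:85833404-85833493 in *Tbx2*, coding bases 298 to 387, and at chr5:119672307-119672396 in *Tbx3*, coding bases 292 to 381. The pair is shown because both genes are low in the same libraries, and capitals mark the 15 bases that differ:
Tbx2: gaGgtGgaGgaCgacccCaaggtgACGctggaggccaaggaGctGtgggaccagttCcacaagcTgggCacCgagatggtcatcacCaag
Tbx3: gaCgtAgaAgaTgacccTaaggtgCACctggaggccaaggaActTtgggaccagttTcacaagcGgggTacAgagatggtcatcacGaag
Even here the longest identical run was 14 bases, under the read length of 50 bases. Of the 7 members, 0 of the 50-base words in the longest coding sequence of each occurred, as written, in any transcript of another gene in GENCODE M21. The reverse complements of the words were not searched. Exact reads from these coding bases thus match no other gene's transcript in the same direction, and antisense transcripts were not covered.

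*Tbx15* (chr3:99253760-99354260, mm10), a factor of trunk dermis whose loss changes the boundary between dorsal and ventral coat colour, showed the opposite order. Its RPKM was 0.342 and 0.449 in CLH and 2.42 and 0.169 in CLT of Ctrl mice, and 0.382 and 0.465 in CLH and 7.02 and 6.87 in CLT of cKO mice. Both cKO CLT libraries lay above all others, Ctrl CLT 1 came next, and Ctrl CLT 2 had the lowest value of all, on 16 reads. An overlapping gene on the other strand, *Gm43120*, is annotated in GENCODE M21 and is not in the table.

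*Tbx18* (chr9:87702800-87731260, mm10), the closest relative of *Tbx15*, stayed under 1 RPKM in every library. Its RPKM was 0.0559 and 0.0159 in CLH and 0.153 and 0.137 in CLT of Ctrl mice, and 0.0380 and 0.0289 in CLH and 0.457 and 0.658 in CLT of cKO mice. Here the 2 Ctrl CLT libraries lay close together, above the CLH libraries, and both cKO CLT libraries lay above them. With 60 and 84 reads in cKO CLT, the exact Poisson 95% intervals were 0.349 to 0.589 and 0.525 to 0.815 RPKM, and in Ctrl CLT they ended at 0.234 and 0.219 RPKM. These intervals cover counting error only. The annotated gene *D030062O11Rik* overlaps *Tbx18* on the other strand and is not in the table.

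*Tbx15* and *Tbx18* were compared in the same way. Their most alike stretch of 90 coding bases within 1 exon lies at chr3:99314745-99314834 on the plus strand in *Tbx15*, coding bases 523 to 612, and at chr9:87724383-87724472 on the minus strand in *Tbx18*, coding bases 619 to 708 (GRCm38). It is shown because both genes are high in the same libraries, at unlike levels, and capitals mark the 16 bases that differ:
Tbx15: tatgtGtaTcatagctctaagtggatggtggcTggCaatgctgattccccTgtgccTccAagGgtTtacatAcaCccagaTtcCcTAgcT
Tbx18: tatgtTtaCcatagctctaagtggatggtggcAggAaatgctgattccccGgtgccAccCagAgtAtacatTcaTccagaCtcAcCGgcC
The longest identical run of this pair was 23 bases.

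Promoters of 3 members, *Tbx18*, *Tbx4* and *Tbx1*, were found in the RefSeq table of GRCm38.p6, each of 300 bases, most of them before the start of transcription. That of *Tbx18* is printed since its start is the end of the gene in the expression table, whereas those of *Tbx4* and *Tbx1* start elsewhere than the table's genes. It lies at chr9:87731211-87731510 on the minus strand, over the start of *Tbx18*:
Tbx18 promoter: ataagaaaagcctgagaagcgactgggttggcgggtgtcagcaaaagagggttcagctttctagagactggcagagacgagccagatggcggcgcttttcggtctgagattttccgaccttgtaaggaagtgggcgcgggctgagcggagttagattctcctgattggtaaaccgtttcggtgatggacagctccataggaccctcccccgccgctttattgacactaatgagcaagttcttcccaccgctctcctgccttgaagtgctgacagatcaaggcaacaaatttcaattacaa
Its GC content was 51.7%, with 15 CpG sites, against medians of 52.7% and 7 over all promoters of the table. No letters are in capitals because the T-box element AGGTGTGA and its shorter form GGTGTGA, which is contained in it, were not found on either strand of the *Tbx18*, *Tbx4* or *Tbx1* promoters. Of 32851 promoters of this length, 1.28% held AGGTGTGA and 3.98% held GGTGTGA. This says only that these letters are not in these windows.

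*Tbx4* (chr11:85890063-85916097, mm10), the hindlimb factor, was also highest in cKO CLT at a low level. Its RPKM was 0.0446 and 0.103 in CLH and 0.241 and 0.0462 in CLT of Ctrl mice, and 0.0364 and 0.0519 in CLH and 0.767 and 0.867 in CLT of cKO mice. Ctrl CLT 1, on 23 reads, lay between the cKO CLT libraries, on 70 and 77 reads, and Ctrl CLT 2, on 4 reads. *Tbx4* is the next gene of the table after *Tbx2* on chromosome 11, 48114 bases away, and the 2 neighbours had opposite extremes in cKO CLT.

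*Tbx5* (chr5:119834663-119885218, mm10), the forelimb and heart factor, had at most 19 reads in any library. Its RPKM was 0.0147 and 0.0661 in CLH and 0.0173 and 0.0477 in CLT of Ctrl mice, and 0.0451 and 0.0515 in CLH and 0.172 and 0 in CLT of cKO mice. The 2 cKO CLT libraries were the highest and the lowest of the 8, so the groups overlapped. No read in cKO CLT 2 allows up to 0.0279 RPKM, the value of 3 reads. *Tbx5* lies 150061 bases beyond *Tbx3* on chromosome 5, with 1 gene of the table, *LOC433944*, between them.

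*Tbx1* (chr16:18581713-18586969, mm10), the dental epithelial factor, was the steadiest of the 4 genes above 1 RPKM. Its RPKM was 12.0 and 13.6 in CLH and 14.6 and 7.64 in CLT of Ctrl mice, and 12.2 and 15.4 in CLH and 17.7 and 18.7 in CLT of cKO mice. The cKO CLT libraries were the highest and Ctrl CLT 2 the lowest, with the other 5 between 12.0 and 15.4 RPKM. The order of the group means in Ctrl CLH was *Tbx2*, *Tbx3*, *Tbx1*, *Tbx15*, *Tbx4*, *Tbx5* and *Tbx18*. *Tbx3*, at 14.9 ± 0.99 RPKM (SD, n = 2), and *Tbx1*, at 12.8 ± 1.1 RPKM (SD, n = 2), were neighbours whose libraries did not overlap, and the 3 lowest genes overlapped in their libraries. In cKO CLT the order was *Tbx1*, *Tbx15*, *Tbx2*, *Tbx4*, *Tbx18*, *Tbx3* and *Tbx5*, from 18.2 ± 0.68 RPKM for *Tbx1* and 6.94 ± 0.11 RPKM for *Tbx15* down to 0.0860 ± 0.12 RPKM for *Tbx5* (SD, n = 2). Only *Tbx18* and *Tbx3* overlapped among the neighbours of that order.

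The make-up of the T-box RNA in cKO CLT stood apart from that of the other libraries. Of the summed RPKM of the 7 genes, *Tbx2* and *Tbx3* together made up 74.8% and 72.5% in Ctrl CLH, 75.5% and 71.7% in cKO CLH, 38.0% and 83.1% in CLT of Ctrl mice, and 5.47% and 5.86% in CLT of cKO mice. *Tbx1* and *Tbx15* together made up 25.0% and 27.1%, 24.3% and 28.1%, 60.6% and 16.4%, and 89.5% and 88.8% in the same order. The 4 CLH libraries and Ctrl CLT 2 lay within 71.7% to 83.1% for the first pair, Ctrl CLT 1 lay apart from them, and both cKO CLT libraries lay lowest. The sum of the 7 genes was 27.7 and 28.8 RPKM in cKO CLT, 28.0 RPKM in Ctrl CLT 1 and 47.5 to 56.4 RPKM in the others, with the lowest of the CLH libraries at 49.4 RPKM. In bulk tissue, fewer cells of a type and less RNA per cell cannot be told apart.

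**Figure D2:**
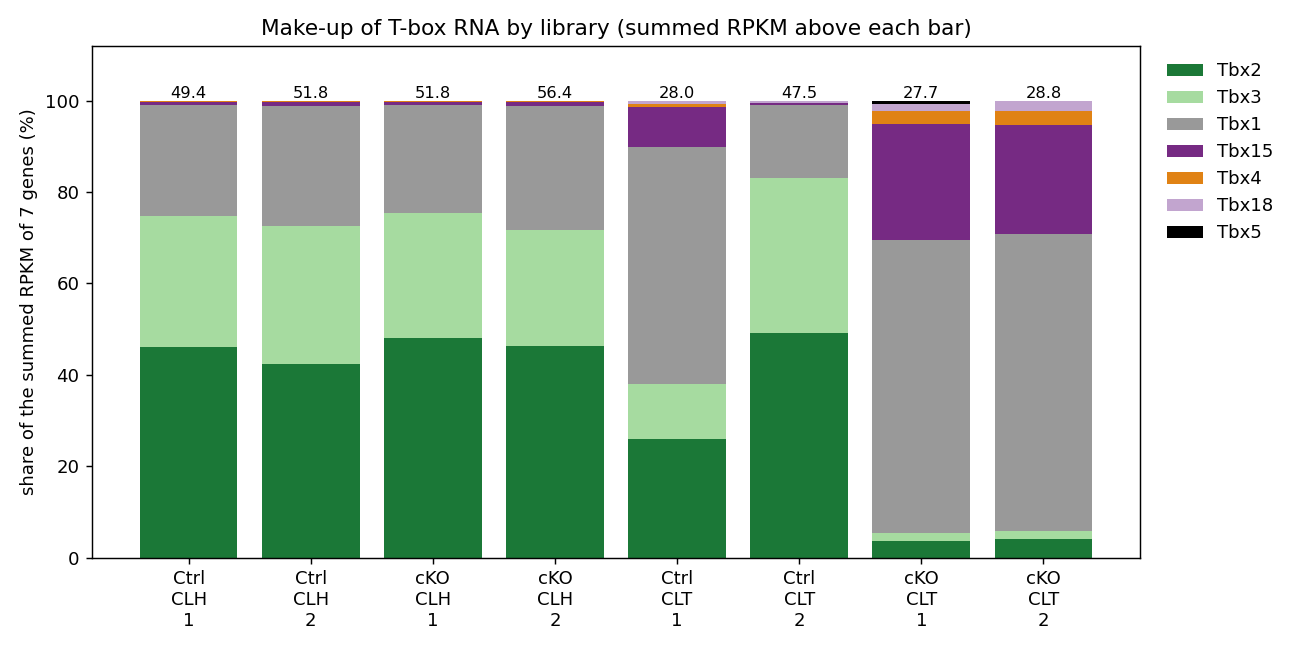
Share of each gene in the summed RPKM of the 7 T-box genes (vertical axis, percent) in each of the 8 libraries (horizontal axis), with the summed RPKM above each bar. *Tbx2* and *Tbx3* fill 71.7% to 83.1% of 5 bars, 38.0% of Ctrl CLT 1 and 5.47% to 5.86% of the cKO CLT bars, where *Tbx1* and *Tbx15* fill most of the rest.

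Whether *Med1* deletion went with a change of the members in the progenies was tested in CLT. Differences were tested on log2(RPKM + 1) with limma over the 14148 genes with at least 1 RPKM in at least 2 of the 8 libraries, which 4 of the 7 members reached (*Tbx1*, *Tbx2*, *Tbx3* and *Tbx15*). *Tbx15* reached it only through CLT libraries in which it is high. This scale understates the change of low genes. Of the 4 members 0 passed an adjusted p of 0.05 (Benjamini-Hochberg over all genes), against 1.75% of all genes tested, and 3 of 4 had an unadjusted p under 0.05, against 36.2% of all genes. The voom model of the recovered reads called 0 of the 4, and 0.0% of all genes.

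For *Tbx2* the log2 fold change in CLT was -2.76 (SE 0.57, adjusted p = 0.076, limma), with a mean RPKM 13.9-fold lower in cKO. *Tbx3* had -2.53 (SE 0.72, adjusted p = 0.10), with a mean 19.5-fold lower, and *Tbx15* had 1.99 (SE 0.57, adjusted p = 0.10), with a mean 5.36-fold higher. *Tbx1* had 0.73 (SE 0.33, adjusted p = 0.19). In RPKM, cKO and Ctrl did not overlap in CLT for any of the 4 members tested, against 72.2% of all genes tested, so the lack of overlap is common in this comparison. Of the 3 members not tested, *Tbx4* and *Tbx18* did not overlap either, and *Tbx5* did. With all genes kept, *Tbx4* differed by 0.67 on the log2 scale (SE 0.12, adjusted p = 0.083, limma) and *Tbx18* by 0.44 (SE 0.091, adjusted p = 0.091, limma), in a fit that called 0.183% of genes.

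These CLT results turned on the 2 Ctrl libraries. Without Ctrl CLT 1, all 4 members passed, against 69.5% of all genes in that fit, with log2 fold changes of -3.53 for *Tbx2*, -3.52 for *Tbx3*, 2.76 for *Tbx15* and 1.15 for *Tbx1*, and the mean RPKM ratio of *Tbx15* was 41.2-fold instead of 5.36-fold. Without Ctrl CLT 2, *Tbx2*, *Tbx3* and *Tbx15* passed at -1.98, -1.54 and 1.21, against 52.1% of all genes, and the ratio of *Tbx15* was 2.86-fold. These fits assume that the lone Ctrl library varies as the cKO pair does, whereas the 2 Ctrl CLT libraries lay much farther apart than that pair. With all 8 libraries in 1 fit, the adjusted p was 0.0066 for *Tbx2*, 0.017 for *Tbx3* and 0.017 for *Tbx15* (limma), and 43.7% of all genes passed. That fit assumes the same spread in all 4 groups, which Ctrl CLT did not share. Calls were thus common among all genes in each of these fits.

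In CLH, where the stem cells reside, no member passed the test, against 0.0% of all genes. At an unadjusted p under 0.05, 1 of 4 members stood, against 7.26% of all genes, *Tbx2* with a log2 fold change of 0.18 (95% interval 0.022 to 0.34, adjusted p = 0.69, limma), and voom called 0. *Tbx2* was also the only member whose groups did not overlap in CLH, against 38.7% of all genes tested. The intervals of the other 3 were -0.26 to 0.45 for *Tbx1*, -0.26 to 0.14 for *Tbx3* and -0.14 to 0.20 for *Tbx15*, on the log2 scale.

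The interaction of genotype and region, which is the cKO effect in CLT minus that in CLH, was fitted on the 8 libraries. For *Tbx2* it was -2.94 (SE 0.64, adjusted p = 0.031, limma), so that 1 of 4 members passed, against 17.6% of all genes tested. It was -2.46 for *Tbx3* (adjusted p = 0.080), 1.96 for *Tbx15* (adjusted p = 0.081) and 0.64 for *Tbx1* (adjusted p = 0.27). These p-values assume the same spread in all 4 groups, whereas the 2 Ctrl CLT libraries lay farther apart than those of any other group. The call of *Tbx2* was lost on leaving out any 1 of the 6 libraries other than Ctrl CLT 1 and 2, with an adjusted p of 0.11 to 0.12 and values of -3.00 to -2.89, in fits that called 1.4% to 1.99% of all genes. Without Ctrl CLT 1 it was -3.72 and all 4 members passed, against 63.1% of all genes, and without Ctrl CLT 2 it was -2.17 and 3 passed, against 46.6%. With all genes kept, *Tbx4* had 0.71 (adjusted p = 0.025) and *Tbx18* 0.44 (adjusted p = 0.036), both past the threshold, against 11.7% of genes in that fit.

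Within each genotype the 2 regions were compared as labelled. Tissue content differed between them as well, since the cKO CLT libraries and in part Ctrl CLT 1 held *Hox*, muscle, fat and skin RNA that CLH held little of, with sums given below, and its part in the values was not tested. In Ctrl, 0 of 4 members passed, against 0.00707% of all genes, and 0 of 4 had an unadjusted p under 0.05, against 13.1% of all genes. The voom model called 0 members and 0.0% of all genes. The log2 fold changes of CLT against CLH were -0.72 for *Tbx2* (SE 0.56), -0.88 for *Tbx3* (SE 0.72), 0.52 for *Tbx15* (SE 0.59) and -0.25 for *Tbx1* (SE 0.33), and each 95% interval held 0. Without Ctrl CLT 2, 3 members passed, against 53.3% of all genes in that fit, with -1.49 for *Tbx2*, -1.87 for *Tbx3* and 1.30 for *Tbx15*, whereas without Ctrl CLT 1 these 3 turned direction, to 0.06, 0.11 and -0.25.

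In cKO, all 4 members passed, against 74.0% of all genes tested. *Tbx2* was lower in CLT than in CLH, at -3.66 on the log2 scale (SE 0.099, adjusted p = 1.0e-08, limma), a 23.2-fold difference of the mean RPKM. *Tbx3* was lower as well, at -3.35 (SE 0.098, adjusted p = 1.6e-08), 28.6-fold, and *Tbx15* was higher at 2.48 (SE 0.10, adjusted p = 1.1e-07), 16.4-fold. *Tbx1* was higher by 0.39 (SE 0.12, adjusted p = 0.016), a call lost with all 8 libraries in 1 fit (adjusted p = 0.27) and without cKO CLH 1, cKO CLT 1 or cKO CLT 2, where its values were 0.23, 0.42 and 0.35. With all genes kept, *Tbx4* at 0.80 (SE 0.055, adjusted p = 1.9e-04) and *Tbx18* at 0.59 (SE 0.073, adjusted p = 0.0016) passed as well, against 59.3% of genes in that fit, and *Tbx5* at 0.05 did not. The median of all genes was -0.18 in this comparison and moved by 0.20 under median-of-ratios scaling. Relative to that median the 4 differences were -3.48 for *Tbx2*, -3.17 for *Tbx3*, 2.66 for *Tbx15* and 0.57 for *Tbx1*. This comparison and the one in CLT share the cKO CLT libraries.

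**Figure D3:**
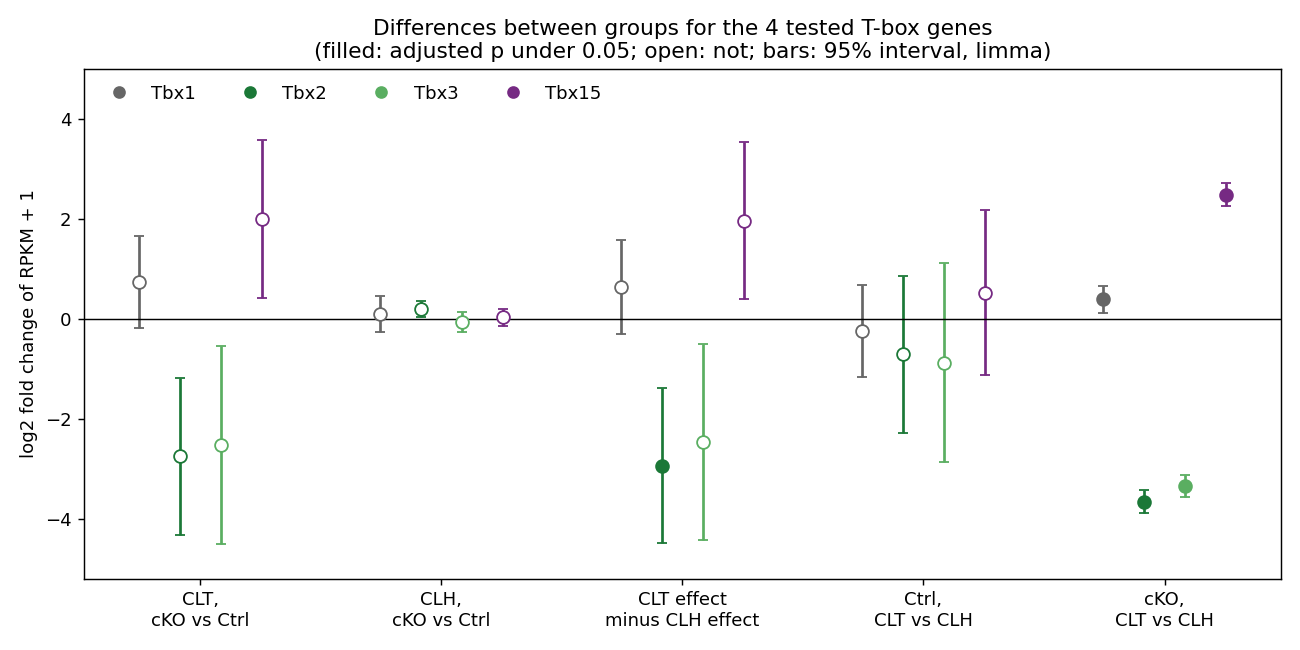
Log2 fold change of RPKM + 1 (vertical axis) of the 4 tested members in 5 comparisons (horizontal axis), with 95% intervals from limma. Filled points passed an adjusted p of 0.05, which were *Tbx2* in the difference between regions and all 4 genes in cKO CLT against cKO CLH, and the intervals that involve Ctrl CLT are wide.

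The other 10 T-box genes of the list stayed low apart from *Mga*, which pairs a T-box with the MAX network, and *Tbx6*, a factor of paraxial mesoderm. The other 8 did not exceed 0.186 RPKM in any library. *Tbx6* had 0.440 and 0.499 RPKM in CLH and 1.43 and 0.548 in CLT of Ctrl mice, and 0.881 and 0.907 in CLH and 3.12 and 3.72 in CLT of cKO mice. It was thus highest in the libraries in which *Tbx15* was highest, and like *Tbx15* it reached the filter only through CLT libraries in which it is high. Its log2 fold change was 1.18 in CLT (SE 0.29, adjusted p = 0.089, limma), where 1.75% of all genes tested passed. From CLH to CLT in cKO it was 1.22 (SE 0.11, adjusted p = 1.7e-05, limma), where 74.0% of all genes tested passed. *Mga* had 3.86 and 3.56 RPKM in cKO CLT, 3.83 in Ctrl CLT 1 and 7.52 to 8.52 in the other 5 libraries.

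Genes known as partners or regulated genes of T-box factors were counted as a list of 22, of which 20 were tested. In CLT 1 of 20 passed, against 1.75% of all genes, and in the list 16 were lower and 4 higher, with a median log2 fold change of -0.74 against -0.0086 for all genes tested. *Hand2*, a factor of the mandibular arch, had 10.8 and 29.3 RPKM in Ctrl and 0 and 0.0164 in cKO (adjusted p = 0.053, limma). *Bmp4*, a signal between dental epithelium and mesenchyme, had 45.3 and 46.8 RPKM and then 20.9 and 22.3 (log2 fold change -1.06, adjusted p = 0.057). In CLH 0 of 20 passed (limma), against 0.0% of all genes. The interaction test called 10 of 20, 8 lower and 2 higher, against 17.6% of all genes.

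The genes whose pattern was most like that of each tested member were ranked by Pearson's r of log2(RPKM + 1) over the 8 libraries, among 6618 genes spanning at least 1 on that scale. The 8 values fall into separate groups and share the same libraries, so r describes that arrangement and no p is given. For *Tbx2* they were *Maged2* (r = 0.9996), the R-spondin gene *Rspo4* (r = 0.9996) and *Vim*, the intermediate filament gene of mesenchymal cells (r = 0.9993). *Vim* had 484.7 and 459.5 RPKM in Ctrl CLH, 266.1 and 507.6 in Ctrl CLT against 127.5 and 132.2 in cKO CLT. For *Tbx3* they were *Ptn*, which encodes the growth factor pleiotrophin, the non-coding *Dlx6as1* and the procollagen protease gene *Adamts3* (r = 0.9995, 0.9990 and 0.9988). For *Tbx15* they were *Lap3*, an aminopeptidase gene, the lipase gene *Mgll* and *Murc*, a gene of muscle caveolae (r = 0.9994, 0.9993 and 0.9990). *Murc* had 0.331 RPKM in Ctrl CLT 2, 2.74 in Ctrl CLT 1 and most in cKO CLT, at 8.31 and 8.09. For *Tbx1* the likeness was looser, with *Coq4*, *Dbndd2* and *Nxt1* at r = 0.967, 0.967 and 0.966.

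Markers of other tissues moved with the T-box genes, and the lists were summed in each library to set them beside the members. The libraries with high *Tbx15* and *Tbx4* also held skeletal muscle, fat, melanocyte, hair and epidermal keratinocyte and *Hox* RNA. Jaw mesenchyme is known to form without *Hox* genes. The 39 *Hox* genes summed to 0.586 to 1.13 RPKM in CLH, with 24 to 32 of them at 0, to 0.809 RPKM in Ctrl CLT 2 with 31 at 0, to 48.0 RPKM in Ctrl CLT 1 with 8 at 0, and to 152 and 143 RPKM in cKO CLT with 8 and 6 at 0. The 10 skeletal muscle genes summed to 33.1 to 39.2 RPKM in CLH, 777 and 59.0 in Ctrl CLT against 2083 and 2297 in cKO CLT, with *Myh1* at 20.2 and 1.74 and then 61.3 and 66.6. The 6 fat cell genes summed to 7.08 to 9.71 RPKM in CLH, 249 and 7.22 in Ctrl CLT, with 5 of 6 at 0 in the latter (*Adipoq*, *Plin1*, *Cidec*, *Lep* and *Retn*), and 679 and 624 in cKO CLT.

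The same order held for the lists of skin. The 6 hair and epidermal keratinocyte genes summed to 7.53 to 16.0 RPKM in CLH, 1643 and 7.84 in Ctrl CLT against 4947 and 5493 in cKO CLT, and the 5 melanocyte genes to 3.60 to 3.85 RPKM, 128 and 9.89, and 394 and 396. In Ctrl CLT 1 these sums thus stood far above Ctrl CLT 2, as *Tbx15* did. On the RPKM scale, Ctrl CLT 1 lay 33.3% of the way from Ctrl CLT 2 to the cKO CLT mean for *Tbx15*, 25.3% for *Tbx4* and 30.9% for *Tbx6*. It lay 32.2% of the way for the *Hox* sum, 33.7% for skeletal muscle, 37.6% for fat cell, 31.4% for hair and epidermal keratinocyte and 30.8% for melanocyte genes. The other lists lay elsewhere, at 15.6% for partners and regulated genes, 47.4% for epithelium, 54.2% for dermal papilla, 73.4% for mesenchyme, 98.2% for leukocyte and 127% for mural cell genes, and the ameloblast sum lay on the far side of Ctrl CLT 2, at -126%. For *Tbx2*, *Tbx3* and *Tbx1* it lay 72.1%, 81.8% and 65.4% of the way, and for *Tbx18* 3.98%. The part of these tissues in the T-box values was not tested.

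The lists that define the tooth went the other way in cKO CLT, beside *Tbx2* and *Tbx3*. The 7 ameloblast and enamel matrix genes summed to 12504 to 14318 RPKM in CLH, 84584 and 37392 in Ctrl CLT against 19.7 and 15.8 in cKO CLT. All 7 passed in CLT as lower. Of all 14148 genes tested, 1.75% passed in CLT in either direction, 237 of them as lower. The 6 odontoblast and bone genes, whose cells are mesenchymal, summed to 973 to 1265 RPKM in CLH, 1115 and 1228 in Ctrl CLT against 1.43 and 1.13 in cKO CLT, where *Ibsp* was at 0, and 5 of 6 passed as lower. *Dspp* had 543 and 644 RPKM in Ctrl CLT against 0.145 and 0.174 in cKO CLT. Unlike *Tbx2* and *Tbx3*, the odontoblast sum lay close together in the 2 Ctrl CLT libraries, with Ctrl CLT 1 at 9.18% of the way to cKO. This did not hold for each gene of the list. *Sp7* had 29.0 and 63.8 RPKM in Ctrl CLT, whereas *Bglap* had 490 and 397 and *Dmp1* had 15.6 and 17.9.

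The dermal papilla list, 9 genes that include markers shared with dental mesenchyme, summed to 432 to 468 RPKM in CLH, 198 and 386 in Ctrl CLT against 37.4 and 38.7 in cKO CLT. In CLT 6 of the 9 were lower and 3 higher (median of the log2 fold changes -0.87). Against 1.75% of all genes tested, 1 of the 9 passed. It was *Wif1*, a secreted Wnt inhibitor, at 152 and 221 RPKM in Ctrl and 14.6 and 14.3 in cKO (adjusted p = 0.029, limma). *Corin*, a marker of the hair dermal papilla and 1 of the 3 higher, had 2.17 and 0.807 and then 5.40 and 5.40 (adjusted p = 0.083, limma). The 13 genes of mesenchyme and dermal fibroblast summed to 2360 and 2605 RPKM in cKO CLT and to 2935 and 4180 in Ctrl CLT, with 0 of 13 passing in CLT, 10 lower and 3 higher. Collagen types parted within this list. *Col3a1* had 527 and 456 RPKM in Ctrl CLT against 874 and 979 in cKO CLT, and *Col1a1* had 1067 and 1335 and then 376 and 472 (adjusted p = 0.075 and 0.062, limma).

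For the remaining lists in CLT, 0 of 10 skeletal muscle, 0 of 6 fat cell, 0 of 19 *Hox*, 0 of 6 hair and epidermal keratinocyte, 0 of 5 melanocyte and 0 of 6 epithelium genes passed (limma), against 1.75% of all genes tested. Each of these listed genes had a higher fitted value in cKO. The median log2 fold changes were 3.09, 1.52, 1.75, 4.19, 3.58 and 0.82 in that order. Of the mural cell list 0 of 7 passed, 3 higher and 4 lower, with sums of 131 and 200 RPKM in Ctrl CLT against 140 and 151 in cKO CLT. Of the leukocyte list 0 of 6 passed, 3 in each direction, and its sum, at 176 to 201 RPKM over the 8 libraries, was the steadiest of all. In cKO CLT against cKO CLH, all 10 skeletal muscle, 6 fat cell, 19 *Hox*, 6 hair and epidermal keratinocyte, 5 melanocyte and 6 epithelium genes tested passed as higher. In that comparison 74.0% of all 14148 genes tested passed in either direction, 4084 of them as higher. Some listed genes stayed under 1 RPKM outside cKO CLT and reached the filter only through the cKO CLT libraries. Among them were *Lep*, *Plin1*, *Retn*, *Hoxa6*, *Hoxd4*, *Hoxc4* and *Hoxa7*. For such genes a higher value in cKO CLT, in either comparison, followed from the filter.

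**Figure D4:**
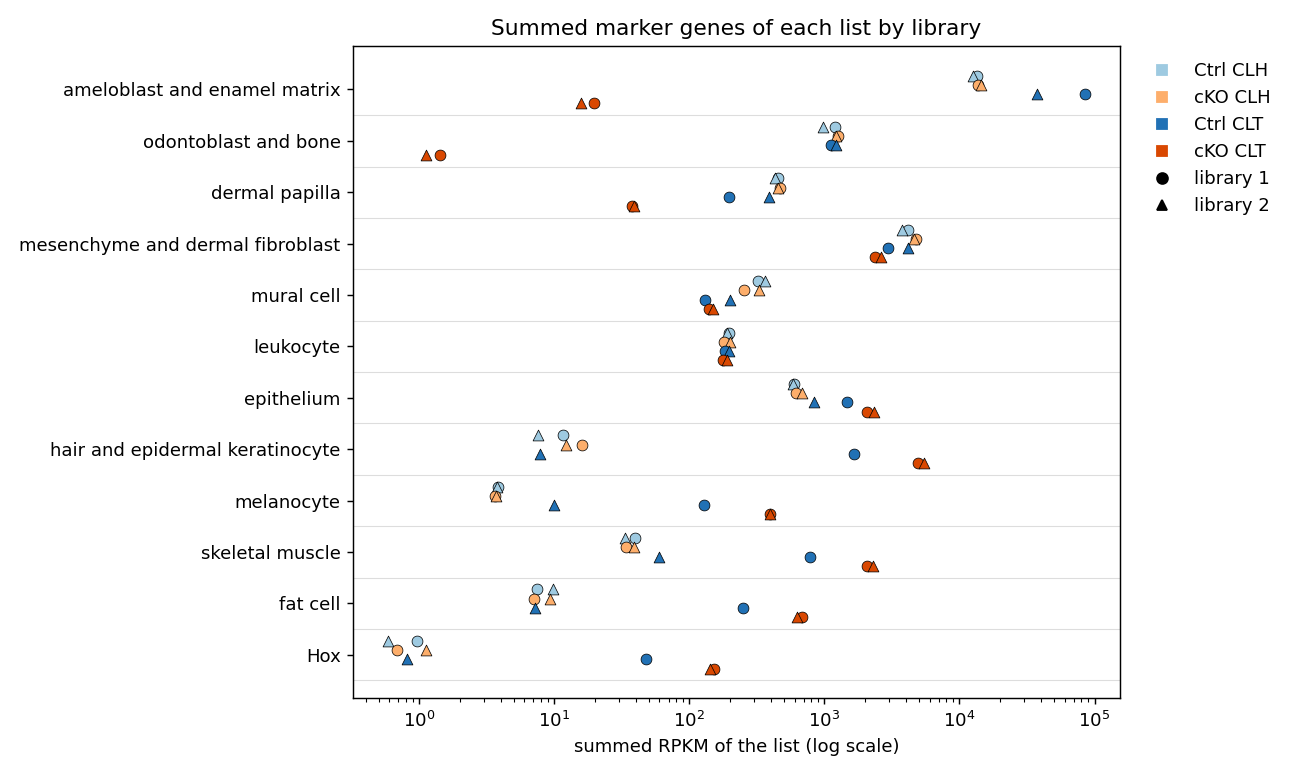
Summed RPKM of the genes of 12 marker lists (horizontal axis, log scale) in each library, with colour for the group, circles for library 1 and triangles for library 2. The cKO CLT libraries have the lowest ameloblast and odontoblast sums and the highest keratinocyte, melanocyte, muscle, fat and *Hox* sums, and Ctrl CLT 1 lies between Ctrl CLT 2 and cKO CLT for the latter.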

How the data were processed

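The RNA-seq libraries of CLH and CLT tissues fall into 4 groups of 2 by their labels. The authors aligned paired reads of 50 bases to mm10 with STAR 2.6.0b-1 and counted reads per gene with featureCounts 1.6.3, and their methods name DESeq2. The deposited table gives the RPKM of 23358 genes, as the authors computed it from those counts. The annotation, the strand setting and the total used for RPKM are not given in the sources used here. Of the gene names, 26 stood on more than 1 row, and none of them is named here. Every column of per-sample values was used.

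Times gene length, 100.0% of the RPKM values were whole numbers of reads (tolerance 0.02 reads) once divided by a unit found for each library, which gave library totals of 26591612 to 34420180 reads. Where a gene has no read, up to 3 are allowed by counting error. Values of log2(RPKM + 1) were tested with limma 3.58.1 in R 4.3.3 (lmFit, eBayes with a variance trend), over genes with at least 1 RPKM in at least 2 libraries, with Benjamini-Hochberg adjustment over all genes and a threshold of 0.05. Each comparison was fitted on its own 4 libraries, and the interaction on all 8. Members under 1 RPKM were fitted without the filter. The scripts were tested on simulated data. With 2 libraries a group, the smallest p of an exact permutation test is 0.333.

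The members, the 14 gene lists and the tests were chosen with earlier results of these data known. The named genes were the 7 members, up to 4 genes of each list with the smallest p in CLT, the other T-box genes tested, for each tested member the 3 genes with the highest r, and *Med1*. *Ibsp* and the fat cell genes given at 0 were named after their values were seen. Gene models came from GENCODE M21 and promoters from RefSeq, both of GRCm38. The alternatives were a pseudocount of 0.1, no filter, median-of-ratios scaling, voom on the recovered reads, a replicate block, all 8 libraries in 1 fit, and each library left out in turn. The values of some genes of the lists are not reported here.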

Additional observations from a re-analysis of the deposited data

Results flagged for a closer look

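The log2 fold change of *Tbx2*, which encodes a T-box repressor, between libraries labelled cKO and Ctrl differed between the regions by the test of the difference itself. It was 0.18 in CLH and -2.76 in CLT, a difference of -2.94 (SE 0.64, adjusted p = 0.031, limma interaction over 8 libraries, 2 per group). In this test 17.6% of all genes tested passed. Its p-value assumes the same spread in all 4 groups, whereas the 2 Ctrl CLT libraries lay farther apart than those of any other group. With the 4 CLT libraries fitted alone, the adjusted p of *Tbx2* was 0.076 (limma). Both cKO CLT libraries lay below both Ctrl CLT libraries, and both cKO CLH libraries lay above both Ctrl CLH libraries. Such lack of overlap, in either direction, held for 72.2% of all genes tested in CLT and 38.7% in CLH. Without Ctrl CLT 1 the difference was -3.72 and without Ctrl CLT 2 it was -2.17, and without any 1 of the other 6 libraries the adjusted p was 0.11 to 0.12. The sums of the marker lists of skin, muscle, fat and *Hox* genes differ between the same libraries, and their part in this difference was not tested.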

How the results depend on the processing

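In CLT, where 0 members passed, 3 passed with the replicate block, against 12.3% of all genes, and 3 with all 8 libraries in 1 fit, against 43.7%, and 0 to 4 passed when 1 library was left out, against 0.0777% to 69.5%. In the difference between the regions, where 1 passed, 2 passed with a pseudocount of 0.1 (16.5% of all genes) and 3 of 7 with no filter on low values (11.7%), and 0 to 4 with 1 library left out (1.4% to 63.1%). In Ctrl, CLT against CLH, 0 to 3 passed with 1 library left out (0.0% to 53.3%). In cKO, CLT against CLH, where 4 passed, 6 of 7 passed with no filter (59.3% of genes) and 3 with all 8 libraries in 1 fit (54.1%). The log2 fold change of *Tbx1* there, 0.39 in the main fit, was 0.23, 0.42 and 0.35 without cKO CLH 1, cKO CLT 1 and cKO CLT 2. With a lone library in a group, the fit assumes that it varies like the others. With all 8 libraries in 1 fit, the same spread is assumed in all 4 groups, which Ctrl CLT did not share. Leaving out 1 library turned the direction of values in CLH, with ranges of -0.062 to 0.25 for *Tbx1*, -0.13 to 0.0012 for *Tbx3* and -0.026 to 0.084 for *Tbx15*, and in Ctrl, CLT against CLH, with ranges of -0.67 to 0.18 for *Tbx1*, -1.49 to 0.057 for *Tbx2*, -1.87 to 0.11 for *Tbx3* and -0.25 to 1.30 for *Tbx15*. Of all alternatives, 38 counts stayed within 1.5 times the reported count, and 234 single values kept their direction and their side of the threshold or, for members under 1 RPKM, moved by less than the spread between libraries. The latter include 8 values of *Tbx4*, *Tbx5* and *Tbx18* that changed sign with 1 library left out. They also include the values of these genes with no filter, which equal the reported values by construction and could not have moved. Of the tested values, 22 came to pass the threshold, 10 no longer passed and 8 turned direction, and 10 values of members under 1 RPKM moved by more with the pseudocount of 0.1. The cause of the changes was not tested.

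The replicate numbers were not shown to pair the samples. The correlations of the deviations of same-numbered libraries from their group means ranged from -0.19 to 0.31 over the 6 pairs of groups, and nothing in the labels ties a number to a litter. With the replicate block, *Tbx2*, *Tbx3* and *Tbx15* passed in CLT at an adjusted p of 0.024, 0.039 and 0.041 (limma), with the same fold changes, and no other member's call changed. Members under 1 RPKM rest on at most 84 reads per library, so that differences among their lower values were not detectable at this depth.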
